A study of Mus musculus with 18 samples.

Results

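The genes described here are 9 of the 27874 genes in a table of mRNA levels in mouse oocytes: the actins Actb and Actg1, the cofilin family genes Cfl1, Cfl2 and Dstn, the profilins Pfn1 and Pfn2, and the beta-thymosins Tmsb4x and Tmsb10. They were taken by name, and they were chosen on measured values, because Tmsb10 and Cfl1 were much higher in oocytes without Lsm14b than in wild-type oocytes at the last time sampled. All values of that contrast are therefore given as a description, with no test. Of the 9 genes, 8 passed the filter for testing (at least 1 FPKM in at least 3 libraries), and Tmsb4x did not.

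Actin filaments lengthen by taking up actin monomers and shorten by losing them. Profilins bind monomers and deliver them to growing filament ends, beta-thymosins hold monomers in reserve, and cofilins and destrin sever filaments and speed their disassembly. In the mouse oocyte a cytoplasmic actin mesh moves the meiotic spindle to the cortex, and cortical actin takes part in polar body extrusion. Fully grown oocytes make little new mRNA, and stored maternal mRNAs are cleared on different schedules as meiosis proceeds.

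Oocytes of Lsm14b-/- mice (KO) and of wild-type mice (WT) were taken before meiosis resumes, with an intact germinal vesicle (GV), in metaphase of the first division (MI), and 14 h after hCG, the hormone human chorionic gonadotropin. This last time is called MII in the labels, whatever the genotype, and nothing there says that the KO oocytes were in metaphase II. Each of the 6 groups has 3 libraries of 15 oocytes. The protein made from Lsm14b binds RNA and is found in cytoplasmic granules of RNA and protein, and the loss is in the whole animal. The mRNA was reverse transcribed from an oligo(dT) primer and amplified by Smart-seq2, so a level can depend on the length of the poly(A) tail as well as on the number of transcripts. Levels are FPKM, that is, reads divided by exon length in kilobases and by sequencing depth, which sets genes of different length on one scale and each library against its own total.

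Depth was 14227763 to 17183681 reads a library, counted in genes, with 7352 to 9795 genes at or over 1 FPKM. Lsm14b stood at 0 to 0.234 FPKM in the KO libraries, against 2.04 to 11.2 FPKM in the WT libraries. All 14 oocyte markers examined reached 1 FPKM in at least 1 library. KO GV replicates 2 and 3 stood apart from their group, with deviations from the group mean over all tested genes of SD 0.522 and 0.476 on the log2 scale, against 0.185 to 0.327 in the other libraries. Calls at GV of the 9 genes and of the other genes named, except Add3, are therefore also given without them where that changes the call. Nothing in the labels says that replicates came from separate animals, so the p-values measure only the spread between these libraries, which may be technical.

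Because the libraries were primed at the poly(A) tail, the 3′ ends of the transcripts are where the measurement starts. The windows below hold 30 bases with an AATAAA polyadenylation signal, the one nearest to 15 bases before the annotated end, of 5 of the transcripts, written 5′ to 3′ on the transcript strand with the signal in capitals. They come from GENCODE vM21 on GRCm38 (mm10). Tmsb10 and Cfl1 are shown as the genes that differed most at MII, Actg1 and Actb as the actins, of which Actg1 was separate between the genotypes at MII and Actb overlapped, and Tmsb4x as the thymosin that was nearly absent.
Tmsb10, chr6:72957354-72957383, minus strand: atgattgatgaaAATAAAaacacctcgtgg
Cfl1, chr19:5495166-5495195, plus strand: atgtaataaataAATAAAtgaataaataaa
Actg1, chr11:120345695-120345724, minus strand: attgtgtaaagaAATAAAagtgctgcagta
Actb, chr5:142903129-142903158, minus strand: tgacttgagaccAATAAAagtgcacacctt
Tmsb4x, chrX:167207095-167207124, minus strand: ttttaatatgcaAATAAAgttttaaaacct

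The AATAAA signal was found in the last 150 bases of all 9 transcripts, and in 66.8% of 8561 tested genes over the same length. The cytoplasmic polyadenylation element, searched as TTTTAT or TTTTAAT on the transcript strand, was found in that window of 1 of the 9 genes, Tmsb4x, with 2 matches, and in 25.7% of the 8561 genes. A TTTTAAT match opens the Tmsb4x window printed above, and the Cfl1 window holds further AATAAA runs, left in lower case. A match is a run of letters, and the search says nothing of the proteins that bind there.

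Tmsb10 (ENSMUSG00000079523, chromosome 6, 72957347 to 72958748, minus strand) encodes thymosin beta-10, a small protein that sequesters actin monomers. At GV Tmsb10 stood at 583, 1237 and 448 FPKM in the KO libraries, against 294, 221 and 305 FPKM in the WT libraries. At MI Tmsb10 stood at 673, 727 and 1129 FPKM in KO, against 447, 257 and 345 FPKM in WT. At both stages every KO library lay above every WT library. At MII Tmsb10 stood at 292, 184 and 296 FPKM in KO, against 6.55, 8.24 and 7.08 FPKM in WT. The MII groups were far apart, and the KO libraries at MII were close to the WT libraries at GV. The mean at MII was 257 ± 63.7 FPKM in KO and 7.29 ± 0.863 FPKM in WT (SD, n = 3 each), a ratio of 35.3. In the ranking of 10320 genes by mean level, Tmsb10 was at place 164 in KO MII and at place 3266 in WT MII. In WT MII it rested on 141 to 173 reads a library.

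Before MII, Tmsb10 was already higher in KO by the test across all genes (limma on log2(FPKM + 1), p adjusted by Benjamini-Hochberg over 10320 genes, threshold 0.05, as for all adjusted p-values here). The log2 difference was 1.34 at GV (SE 0.33, adjusted p = 0.0102) and 1.26 at MI (SE 0.33, adjusted p = 0.0128). The GV difference fell short of the threshold without KO GV replicate 2, the library with 1237 FPKM (log2 0.91, adjusted p = 0.0524). It also fell short in a fit of only the KO and WT GV libraries (adjusted p = 0.102, against 0.00683 to 0.102 over 11 other settings). The MI difference fell short without KO MI replicate 3 (adjusted p = 0.0718) or WT MI replicate 2 (adjusted p = 0.0759). Tmsb10 kept its direction in each of these fits. All levels are relative within a library of whole oocytes, so fewer cells with an mRNA and less of it per cell cannot be told apart.

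Tmsb4x (ENSMUSG00000049775, chromosome X, 167207093 to 167209315, minus strand) encodes thymosin beta-4, the other monomer-sequestering thymosin measured. It stood at 0.0965, 0.148 and 0.101 FPKM in KO GV libraries, against 0.0480, 0.0445 and 0 FPKM in WT GV libraries, from 0 to 3 reads each. At MI Tmsb4x stood at 0.310, 0.212 and 1.02 FPKM in KO, against 0.648, 4.13 and 0.0476 FPKM in WT. At MII Tmsb4x stood at 0.0892, 0.0451 and 0.357 FPKM in KO, against 0.0865, 0.576 and 0 FPKM in WT. Most of these values rest on a handful of reads, and the groups overlap at MI and MII. A count of 0 allows up to 0.154 FPKM in WT GV replicate 3 and 0.135 FPKM in WT MII replicate 3 (3 reads, counting error only, since PCR reads are not independent molecules). The highest library, WT MI replicate 2, had 86 reads of Tmsb4x. It also had the highest sum of 10 blood cell markers, 34.6 FPKM, of which Lyz2, a macrophage lysozyme gene, made up 27.5 FPKM. In the other 17 libraries that sum was at most 8.03 FPKM, in KO MII replicate 3, where Tmsb4x stood at 0.357 FPKM. KO MI replicate 3, the next highest library in Tmsb4x with 1.02 FPKM, had a sum of 1.67 FPKM. The part of blood RNA in the Tmsb4x values was not tested. Tmsb10 made up 93.5% to 100% of the summed thymosin FPKM in every library.

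**Figure D1:**
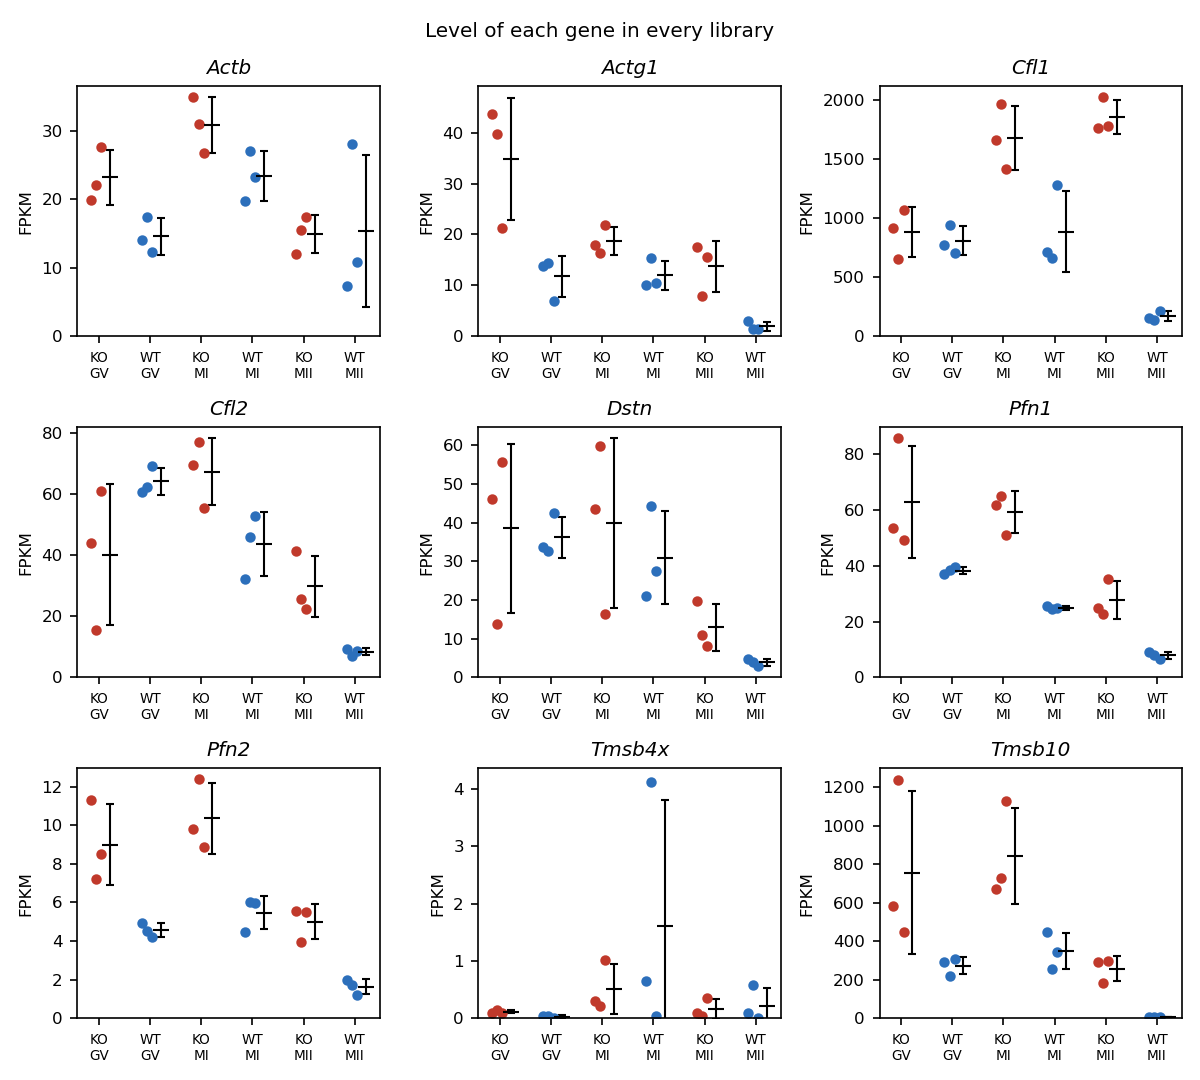
Level of each of the 9 genes in FPKM (linear axis from 0) in each of the 18 libraries, as points, with KO (red) left of WT (blue) at GV, MI and MII. Black marks show the mean ± SD of 3 libraries, cut off at 0, and Tmsb10 and Cfl1 show the widest separation of KO from WT at MII.

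Cfl1 (ENSMUSG00000056201, chromosome 19, 5490455 to 5495201, plus strand) encodes cofilin-1, the non-muscle cofilin that severs and depolymerises filaments. At GV Cfl1 stood at 915, 653 and 1073 FPKM in KO, against 777, 947 and 708 FPKM in WT. At MI Cfl1 stood at 1662, 1966 and 1416 FPKM in KO, against 712, 664 and 1283 FPKM in WT. At MII Cfl1 stood at 1769, 2028 and 1783 FPKM in KO, against 158, 136 and 215 FPKM in WT. The genotypes overlapped at GV and were separate at MI and MII. Cfl1 was thus at its highest group mean in KO MII, 1860 ± 146 FPKM, while the lowest group mean was that of WT MII, 170 ± 40.9 FPKM (SD, n = 3 each). The ratio of these means was 10.9. Cfl1 held place 36 of 10320 genes by mean level in KO MII and place 216 in WT MII, so it was still an abundant mRNA in WT.

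At GV the log2 difference of Cfl1 between KO and WT was 0.10 (95% interval -0.49 to 0.69, adjusted p = 0.812). It was -0.20 with median-of-ratios scaling, so its sign at GV depends on the scaling. At MI Cfl1 was higher in KO by 0.98 (SE 0.27, adjusted p = 0.0181). The MI call did not hold in every fit. It was lost without KO MI replicate 1 (adjusted p = 0.0505), KO MI replicate 2 (0.0752), WT MI replicate 1 (0.0709) or WT MI replicate 2 (0.0994), with differences of 0.80 to 0.98 in those 4 fits. Without KO MI replicate 1 the difference stayed at 0.98. From GV to MI Cfl1 rose in KO by 0.95 (SE 0.27, adjusted p = 0.0263), while in WT the change was 0.07 (SE 0.27, adjusted p = 0.888), and -0.33 with median-of-ratios scaling. The difference between the genotypes in that change was 0.88 (95% interval 0.04 to 1.71), and it did not pass the test (adjusted p = 0.343). The rise in KO also fell short without KO GV replicate 1 (0.0528), KO GV replicate 2 (0.0820), KO MI replicate 1 (0.0741) or KO MI replicate 2 (0.110). It fell short in 3 of 11 other settings, whose adjusted p-values ran between 0.0218 and 0.140.

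Cfl2 (ENSMUSG00000062929, chromosome 12, 54858809 to 54862877, minus strand) encodes cofilin-2, best known from muscle. At GV Cfl2 stood at 43.8, 15.3 and 61.0 FPKM in KO, against 60.7, 62.3 and 69.1 FPKM in WT. At MI Cfl2 stood at 69.5, 77.0 and 55.3 FPKM in KO, against 32.0, 45.9 and 52.8 FPKM in WT. At MII Cfl2 stood at 41.2, 25.6 and 22.4 FPKM in KO, against 9.42, 7.04 and 8.72 FPKM in WT. KO libraries were on the low side at GV, with KO GV replicate 2 lowest, and above WT at MI and MII. The log2 difference was -0.87 at GV (SE 0.36, adjusted p = 0.0902) and 0.63 at MI (SE 0.36, adjusted p = 0.251), and neither passed. The GV value depends on the libraries that stand apart, with -0.30 without KO GV replicate 2 (adjusted p = 0.518) and -1.26 without KO GV replicate 3 (adjusted p = 0.00825). The difference between genotypes in the change from GV to MI was 1.50 (95% interval 0.38 to 2.61, adjusted p = 0.270), and it passed without KO GV replicate 3 (1.90, adjusted p = 0.0317).

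Dstn (ENSMUSG00000015932, chromosome 2, 143915320 to 143943324, plus strand) encodes destrin, also called actin-depolymerising factor. At GV Dstn stood at 46.0, 13.8 and 55.7 FPKM in KO, against 33.6, 32.6 and 42.4 FPKM in WT. At MI Dstn stood at 43.4, 59.8 and 16.4 FPKM in KO, against 21.0, 44.4 and 27.4 FPKM in WT. At MII Dstn stood at 19.8, 10.9 and 8.13 FPKM in KO, against 4.72, 3.98 and 2.86 FPKM in WT. Dstn scattered widely among KO libraries and overlapped between genotypes at GV and MI, where the log2 differences were -0.12 (SE 0.47, adjusted p = 0.879) and 0.24 (SE 0.47, adjusted p = 0.776). At MII every KO library lay above every WT library.

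Pfn1 (ENSMUSG00000018293, chromosome 11, 70651850 to 70654644, minus strand) encodes profilin-1, the main profilin of most tissues. At GV Pfn1 stood at 53.7, 85.9 and 49.1 FPKM in KO, against 37.1, 38.4 and 39.5 FPKM in WT. At MI Pfn1 stood at 61.7, 65.2 and 50.9 FPKM in KO, against 25.6, 24.5 and 24.7 FPKM in WT. At MII Pfn1 stood at 24.9, 22.8 and 35.4 FPKM in KO, against 9.03, 7.94 and 6.67 FPKM in WT. The WT libraries were tightly grouped at every stage, and no KO library reached down to them. At MI Pfn1 was higher in KO by 1.21 on the log2 scale (SE 0.23, adjusted p = 0.00155), and this call held in all 18 fits that left out 1 library and under all 11 other settings. At GV the difference was 0.66 (SE 0.23, adjusted p = 0.0517), which is on the edge of the threshold. It passed in 4 of 11 other settings and in 2 of 18 fits without 1 library. Of the libraries that stand apart, leaving out KO GV replicate 3 gave 0.81 (adjusted p = 0.0149) and leaving out KO GV replicate 2 gave 0.41 (adjusted p = 0.250).

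Pfn2 (ENSMUSG00000027805, chromosome 3, 57841895 to 57848079, minus strand) encodes profilin-2, known chiefly from brain. At GV Pfn2 stood at 11.3, 7.21 and 8.49 FPKM in KO, against 4.92, 4.55 and 4.23 FPKM in WT. At MI Pfn2 stood at 9.79, 12.4 and 8.89 FPKM in KO, against 4.47, 6.01 and 5.96 FPKM in WT. At MII Pfn2 stood at 5.54, 3.95 and 5.49 FPKM in KO, against 1.98, 1.73 and 1.23 FPKM in WT. As for Pfn1, the KO libraries were above the WT libraries at each stage. The log2 difference was 0.83 at GV (SE 0.22, adjusted p = 0.0152) and 0.81 at MI (SE 0.22, adjusted p = 0.0163). The GV call was lost without KO GV replicate 1 (0.67, adjusted p = 0.0737) or WT GV replicate 3 (0.78, adjusted p = 0.0577). It was also lost with median-of-ratios scaling (0.57, adjusted p = 0.0593) and in a fit of only the GV libraries (adjusted p = 0.119), where 11 other settings gave 0.0138 to 0.119. The MI call was lost without KO MI replicate 2 (adjusted p = 0.0765) or WT MI replicate 1 (adjusted p = 0.0703).

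The 2 actins encode near-identical non-muscle proteins. Actg1 (ENSMUSG00000062825, chromosome 11, 120345690 to 120348542, minus strand), which encodes gamma-actin, stood at 43.6, 39.8 and 21.3 FPKM in KO GV libraries, against 13.9, 14.4 and 7.03 FPKM in WT GV libraries. At MI Actg1 stood at 17.98, 16.4 and 21.8 FPKM in KO, against 9.99, 15.3 and 10.5 FPKM in WT. At MII Actg1 stood at 17.6, 7.98 and 15.6 FPKM in KO, against 2.95, 1.35 and 1.50 FPKM in WT. KO was above WT at each stage without overlap, by a narrow margin at MI. The log2 difference was 1.49 at GV (SE 0.34, adjusted p = 0.00611), and it passed in all 18 fits without 1 library. It did not pass in a fit of only the GV libraries (adjusted p = 0.0726, against 0.00224 to 0.0726 over 11 other settings). At MI the difference was 0.62 (SE 0.34, adjusted p = 0.223), and it passed with median-of-ratios (0.80, adjusted p = 0.0378) and quantile scaling (0.82, adjusted p = 0.0421).

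Actb (ENSMUSG00000029580, chromosome 5, 142903115 to 142906754, minus strand), which encodes beta-actin, stood at 19.9, 22.1 and 27.7 FPKM in KO GV libraries, against 14.1, 17.5 and 12.3 FPKM in WT GV libraries. At MI Actb stood at 35.0, 31.0 and 26.8 FPKM in KO, against 19.8, 27.1 and 23.3 FPKM in WT. At MII Actb stood at 12.03, 15.5 and 17.5 FPKM in KO, against 7.33, 28.1 and 10.9 FPKM in WT. WT MII replicate 2 was above all KO libraries while the other WT libraries were below them. The log2 difference was 0.64 at GV (SE 0.33, adjusted p = 0.162) and 0.39 at MI (SE 0.33, adjusted p = 0.457), and neither passed.

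Counted over the genes, KO against WT at GV gave 3 genes higher (Actg1, Tmsb10 and Pfn2) and 0 lower of 8 tested, where 13.3% of all 10320 tested genes were higher and 7.49% lower. That background depends on the scaling: 10.5% were higher and 14% lower with median-of-ratios scaling, which called 2 of the 8 genes, and 13.4% and 13.1% with quantile scaling, which called 4, all of them higher. The median log2 difference was 0.65 for the 8 genes and 0.17 for all tested genes. At an unadjusted p under 0.05, 4 were higher and 1, Cfl2, was lower, where 25.5% of all genes were higher and 12.6% lower. In a fit of only the 6 GV libraries, 0 of the 8 genes passed, where 0.891% of all genes were higher and 2.03% lower. Without KO GV replicate 3, 5 passed, with Pfn1 higher and Cfl2 lower besides the 3 above, and 29.6% of all genes were then higher and 10.5% lower. At MI, 4 genes were higher (Pfn1, Tmsb10, Pfn2 and Cfl1) and 0 lower, where 3.63% of all tested genes were higher and 13.7% lower. That imbalance narrows with another scaling: 8.47% were higher and 11.2% lower with median-of-ratios scaling, and 10.3% and 11.6% with quantile scaling, each of which called 5 of the 8 genes, all higher. The median difference at MI was 0.72 for the 8 genes and -0.13 for all tested genes. Without KO MI replicate 2, WT MI replicate 1 or WT MI replicate 2 the count at MI was 2. Of all genes, 1.86%, 2.64% and 2.92% were then higher, and 11.2%, 11.3% and 7.49% lower, in that order. Median-of-ratios scaling moves the median of all genes to -0.04 at GV and to 0.02 at MI. Tmsb10 is among the genes called at GV, and Tmsb10 and Cfl1 are among those called at MI. Both led to the choice of the genes, so the counts and medians at GV and MI are not free of that choice.

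At MII, 7 of the 9 genes had every KO library above every WT library, and Actb and Tmsb4x overlapped, where 25.8% of the 10320 tested genes had KO above WT. Among the 7 are both genes that led to the choice, so nothing is read from this count. The ratio of the KO mean to the WT mean at MII was 7.10 for Actg1, 3.54 for Cfl2, 3.52 for Pfn1, 3.36 for Dstn and 3.03 for Pfn2. It was 0.972 for Actb, whose log2 difference was 0.15 with all libraries and 0.67 without WT MII replicate 2. The median log2 difference of the 8 genes was 1.67, against 0.007 for all tested genes. That median also holds both genes that led to the choice, and nothing is read from it. Markers of cumulus and granulosa cells, which surround the oocyte, summed to 139 to 159 FPKM in KO MII libraries, against 133 to 159 FPKM in WT MII libraries. Serpine2 alone supplied most of that sum, and 7 of the 22 markers in the table reached 1 FPKM in any library. Among these 7, Fshr (1.48 against 0.2596 FPKM) and Nr5a2 (3.19 against 1.203) had higher means in KO GV than in WT GV. So did Kitl (1.898 against 1.25) and Inha (1.101 against 0.869). Serpine2 (69.1 against 75.9), Cyp19a1 (2.22 against 2.997) and Grem1 (0.126 against 0.254) had lower means in KO GV. The part of cumulus or granulosa RNA in the GV values was not tested.

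**Figure D2:**
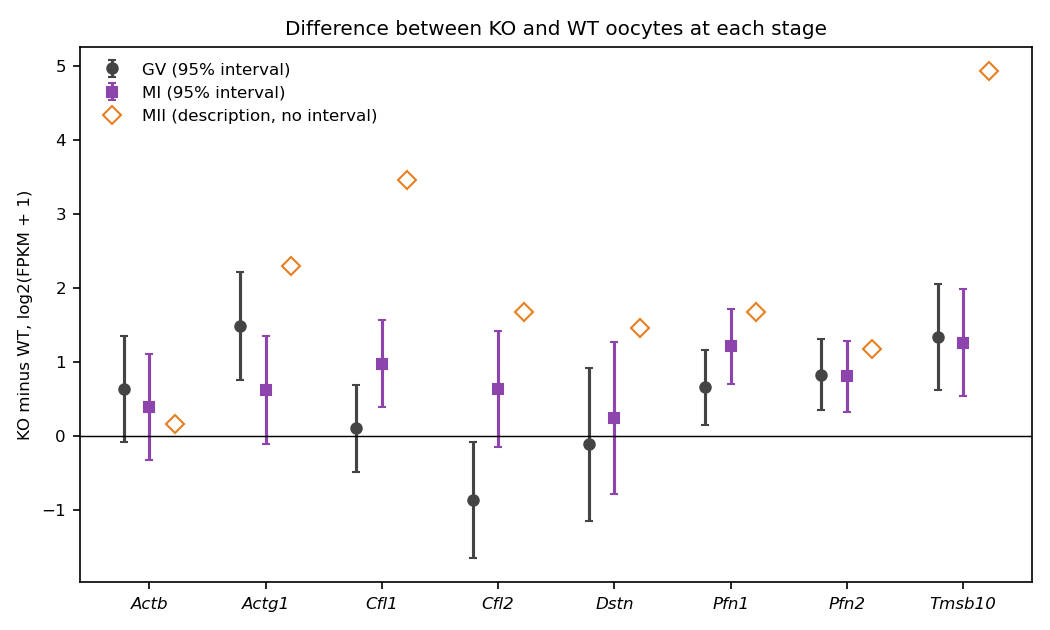
Difference KO minus WT on the log2(FPKM + 1) scale for the 8 tested genes at GV (circles), MI (squares) and MII (open diamonds). Bars at GV and MI are 95% intervals from the limma standard error and a t value with 12 degrees of freedom. The MII points carry none because that contrast chose the genes. The MII difference is 4.93 for Tmsb10 and 0.15 for Actb.

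Set against GV of the same genotype, MII levels were below the GV mean for most of these mRNAs in both genotypes. In KO they were 33.7% of the GV mean for Dstn, 39.3% for Actg1, 44.1% for Pfn1, 55.5% for Pfn2, 64.7% for Actb and 74.2% for Cfl2. In WT they were 10.6% for Dstn, 13.1% for Cfl2, 16.4% for Actg1, 20.5% for Pfn1, 36.1% for Pfn2 and 106% for Actb. Tmsb10 stood at 34.0% of its GV mean in KO MII and at 2.66% in WT MII, and Cfl1 at 211% in KO MII and 21.0% in WT MII, given as values only. Over 3831 genes with at least 5 FPKM at GV in both genotypes, the median was 90.5% in KO and 82.1% in WT. The GV levels that these percentages start from also differ between the genotypes, and whether the declines differ between KO and WT was not tested, because that contrast holds the MII libraries that chose the genes.

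Leaving Tmsb10 and Cfl1 out, 6 genes could be tested for the change from GV to MII. In KO, 4 of the 6 fell and 0 rose, where 25.4% of all tested genes fell and 11.9% rose. Median-of-ratios scaling called 3 of the 6 genes, with 24.1% of all genes falling and 21.8% rising, and quantile scaling called 2, with 20.4% falling and 29.8% rising, so most calls over all genes turn to rises there. Actg1 fell by 1.29 (SE 0.34, adjusted p = 0.00537), Pfn1 by 1.14 (SE 0.23, adjusted p = 0.000794), Pfn2 by 0.73 (SE 0.22, adjusted p = 0.0138) and Dstn by 1.37 (SE 0.47, adjusted p = 0.0282). The Dstn call was lost without KO GV replicate 1 or 3 or without KO MII replicate 2 or 3, with adjusted p-values up to 0.112, and in 4 of 11 other settings (0.0241 to 0.0974). The Pfn2 call was lost without KO GV replicate 1 (0.0736) or KO MII replicate 2 (0.0713), and in 2 of 11 other settings (0.0112 to 0.0966). In KO, Cfl2 changed by -0.26 (SE 0.36, adjusted p = 0.600) and Actb by -0.60 (SE 0.33, adjusted p = 0.164). Without KO GV replicate 2, Cfl2 fell by 0.83 (adjusted p = 0.0279).

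In WT, 5 of the 6 genes fell and 0 rose from GV to MII, where 28.8% of all tested genes fell and 28.9% rose. Dstn fell by 2.95 (SE 0.47, adjusted p = 4.73e-05) and Cfl2 by 2.80 (SE 0.36, adjusted p = 4.16e-06). Pfn1 fell by 2.16 (SE 0.23, adjusted p = 4.33e-07), Actg1 by 2.10 (SE 0.34, adjusted p = 4.68e-05) and Pfn2 by 1.08 (SE 0.22, adjusted p = 0.000463). These 5 calls held in all 18 fits without 1 library and under all 11 other settings. Actb changed by -0.12 (SE 0.33, adjusted p = 0.772), a value that WT MII replicate 2 decides: without it Actb fell by 0.63 (adjusted p = 0.0480).

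**Figure D3:**
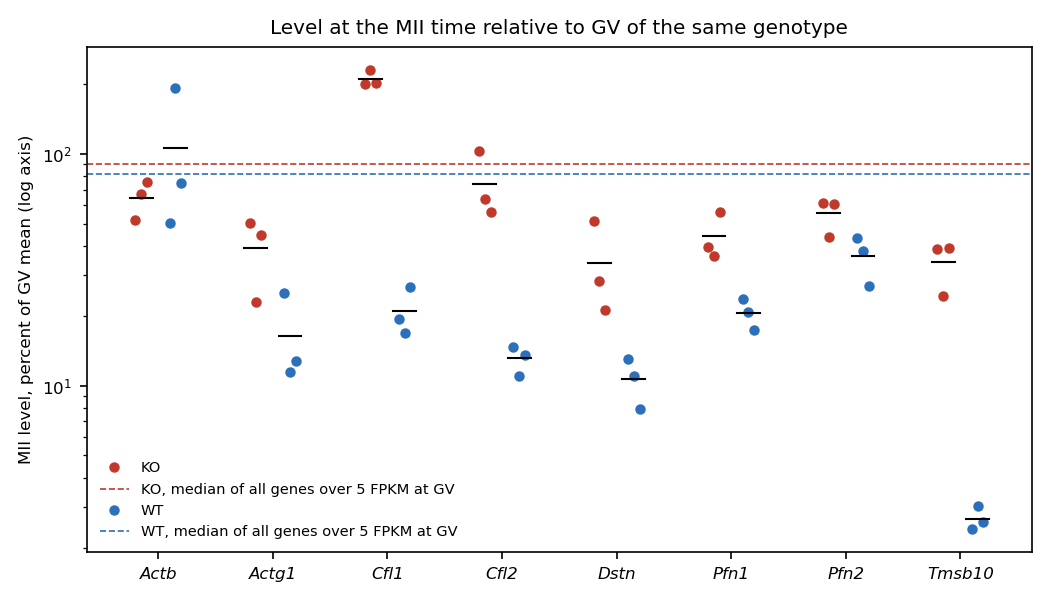
Level at the MII time as a percent of the GV mean of the same genotype (log axis) for the 8 tested genes, with each MII library as a point, KO (red) left of WT (blue), and the mean as a black line. Dashed lines mark the medians of 3831 genes, 90.5% in KO and 82.1% in WT; Tmsb10 is at 34.0% in KO and 2.66% in WT.

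Between GV and MI few of the genes passed the test. In KO, 1 of the 8 genes, Cfl1, rose and 0 fell, where 2.53% of all tested genes rose and 10.4% fell. Over all genes, 5.3% rose and 10.9% fell with median-of-ratios scaling, and 7.93% rose and 10.4% fell with quantile scaling. At an unadjusted p under 0.05, 2 of the 8 rose and 1 fell, where 8.75% of all genes rose and 17.6% fell. Without KO GV replicate 3 the count was 3, with Cfl2 higher (1.32, adjusted p = 0.0125) and Actg1 lower (-1.12, adjusted p = 0.0269) besides Cfl1, and 3.54% of all genes then rose and 15% fell. In WT, limma called 0 of the 8 genes in either direction, where 4.82% of all 10320 genes were called, and a voom fit of the recovered reads called 0 too. At an unadjusted p under 0.05 it was 1 of the 8, Pfn1, and 27.1% of all genes. Pfn1 changed by -0.60 in WT (SE 0.23, adjusted p = 0.111), and it passed with median-of-ratios (-0.99, adjusted p = 0.00769) and quantile scaling (-0.73, adjusted p = 0.0387). Over all genes in WT, 2.75% rose and 2.06% fell as deposited, 1.46% and 6.76% with median-of-ratios scaling, and 2.64% and 5.32% with quantile scaling. The median change of all tested genes from GV to MI in WT was 0.24 as deposited and -0.04 with median-of-ratios scaling. For the difference between genotypes in the change from GV to MI, limma called 0 of the 8 genes, as did voom, where 0.0775% of all genes were called. At an unadjusted p under 0.05 there were 2 of the 8, Cfl1 and Cfl2, and 13.4% of all genes.

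Within families the composition was set by 1 gene in most cases. FPKM is per length, so levels of different genes can be compared. Cfl1 made up 92.3% ± 2.97 of the summed FPKM of Cfl1, Cfl2 and Dstn in KO GV libraries, against 88.8% ± 2.27 in WT GV libraries (SD, n = 3 each). At MII its share was 97.7% ± 0.931 in KO, against 93.1% ± 1.63 in WT. Pfn1 made up 84.5% to 86.7% of the profilin sum in KO groups, against 82.0% to 89.3% in WT groups, as group means. Actb made up 41.2% ± 13.5 of the actin sum in KO GV, against 56.2% ± 6.72 in WT GV, and 62.2% ± 6.13 in KO MI, against 66.4% ± 2.46 in WT MI. At MII its share was 53.2% ± 12.7 in KO, against 84.9% ± 12.3 in WT, given with no test. The Cfl2 share at GV was 3.91% ± 1.49 in KO, against 7.13% ± 1.23 in WT, without overlap. Exact two-sided permutation tests of 12 shares at GV and MI could not pass, since 3 against 3 libraries allow no p under 0.1, so the shares stand as values.

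The order of the levels changed between groups. In KO GV oocytes Cfl1 (881 FPKM, as a group mean) and Tmsb10 (756) overlapped and led. In WT GV oocytes Cfl1 (811 FPKM) was followed by Tmsb10 (274), Cfl2 (64.1), Pfn1 (38.3), Dstn (36.2), Actb (14.6), Actg1 (11.8), Pfn2 (4.57) and Tmsb4x. Pfn1 overlapped with Dstn there, and Actb with Actg1. In KO MII oocytes Cfl1 (1860 FPKM) and Tmsb10 (257) led, Cfl2 (29.7) and Pfn1 (27.7) overlapped, and Actb (15.01), Actg1 (13.7) and Dstn (13.0) overlapped. In WT MII oocytes Cfl1 (170 FPKM) led, and Actb (15.4), Cfl2 (8.39), Pfn1 (7.88) and Tmsb10 (7.29) overlapped. Set against the summed actin FPKM of the same library, Tmsb10 was 7.82 to 9.86 times as high in KO MII libraries, against 0.280 to 0.638 times in WT MII libraries. Cfl1 was 53.9 to 86.3 times the actin sum in KO MII, against 4.62 to 17.4 times in WT MII. At GV the same Cfl1 ratio was 10.6 to 21.9 in KO, against 27.8 to 36.7 in WT, and the actin sum was 48.9 to 63.5 FPKM in KO, against 19.3 to 31.8 FPKM in WT. These ratios were not tested.

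Near-identical copies could share reads with these genes, and the counting is not given in the sources used here. For Tmsb10, 5 annotated genes match at least 90% of the bases over at least 50% of its coding sequence, 4 of them processed pseudogenes. They include Gm3788, with 99.2% identity, and Gm9844, with 98.5%. Their summed level was 73.5 to 234 FPKM in KO GV libraries, against 45.3 to 63.2 FPKM in WT GV libraries, and 130 to 224 FPKM in KO MI, against 44.6 to 105 FPKM in WT MI. At MII it was 30.1 to 65.4 FPKM in KO, against 8.97 to 15.7 FPKM in WT. In WT MII the sum of the copies was above Tmsb10 itself in each library, and in the other 15 libraries it was below. With the reads of the copies added, Tmsb10 stood at 304, 191 and 310 FPKM in KO MII, against 7.39, 9.05 and 8.63 FPKM in WT MII. For Cfl1, 2 processed pseudogenes match, at a median of 1.26% of its FPKM. For Actg1, 3 processed pseudogenes match, with sums of 0.488 to 1.47 FPKM in KO MII, against 0.105 to 0.763 FPKM in WT MII. For Actb, the protein-coding gene Lrrc58 holds a match of 91.8% identity, at 0.441 to 2.28 FPKM over the 18 libraries. With all reads of Lrrc58 added, Actb stood at 17.2, 18.1 and 21.6 FPKM in KO MII, against 14.7, 30.7 and 13.8 FPKM in WT MII, and its log2 difference at MII was 0.032, against 0.15 without them. That sum counts every read of Lrrc58 as Actb. The coding sequences of Actb and Actg1 are 88.6% identical with a longest shared run of 62 bases, while the other pairs within families are 62.2% to 71.9% identical. Exons of Snx32 cover 16.5% of the 2844 bases of all Cfl1 exons in GENCODE vM21, and strand is not given in the sources used here. The deposited Cfl1 values gave whole reads with a length of 2354 bases, that of transcript Cfl1-202, and not with those 2844 bases. The overlap with Snx32 within the 2354 bases was not computed.

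**Figure D4:**
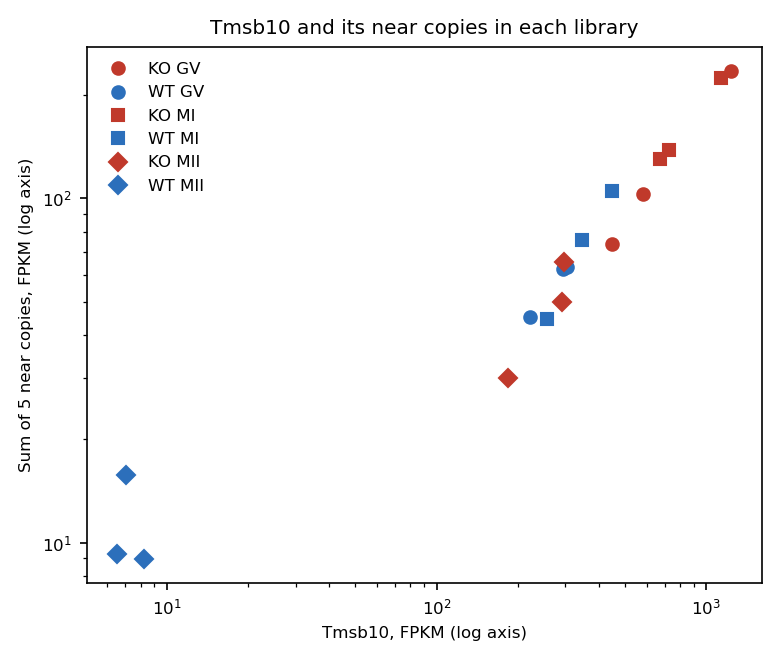
Summed FPKM of 5 near copies of Tmsb10 (vertical, log axis) against FPKM of Tmsb10 (horizontal, log axis) in each of the 18 libraries, KO in red and WT in blue, with circles for GV, squares for MI and diamonds for MII. The 3 WT MII libraries lie apart at 6.55 to 8.24 FPKM of Tmsb10 and 8.97 to 15.7 FPKM of the copies.

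The genes whose levels followed Tmsb10 most closely over the 18 libraries, leaving out predicted genes, clones and pseudogenes, were Chchd2, Birc5, Pinlyp, Sec61g and Rpl10, with Pearson r of 0.992, 0.990, 0.985, 0.983 and 0.980 of log2(FPKM + 1). Chchd2, which encodes a mitochondrial protein, averaged 80.3 FPKM in KO MII, against 2.31 FPKM in WT MII. Birc5, which encodes survivin of the chromosomal passenger complex, averaged 603 FPKM in KO MII, against 119 FPKM in WT MII. For Cfl1 they were Zfp57, Polr3k, Miox, Galk2 and Dnmt3l, with r of 0.973, 0.956, 0.953, 0.942 and 0.929. Zfp57, a maternal zinc finger factor of imprinted loci, averaged 1532 FPKM in KO MII, against 302 FPKM in WT MII. Tmsb10 and Cfl1 had r of 0.825 with each other. Of the other genes here, Pfn1 (0.936) and Actg1 (0.906) were nearest to Tmsb10, and Pfn2 (0.768) and Cfl2 (0.749) to Cfl1. Actb was the least like either, with 0.526 and 0.368. These values carry no test, since the libraries share their stages and genotypes.

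Other genes of actin regulation were read from 6 lists of 120 symbols, and their counts stand beside the background given above, 13.3% of all genes higher in KO and 7.49% lower at GV, and 3.63% higher and 13.7% lower at MI. In fits of only the GV libraries, 0 genes of any list passed at GV, where 0.891% of all genes were higher and 2.03% lower. Without KO GV replicate 2, 4.53% of all genes were higher at GV and 5.47% lower, and without KO GV replicate 3, 29.6% and 10.5%. Among kinases, phosphatases and cofactors of cofilin, 2 of 11 tested genes were higher in KO at GV and 0 lower, with a list median of 0.46 against 0.17 for all genes, a share close to the background. Without KO GV replicate 2 the count was 0, and without KO GV replicate 3 it was 8. The 2 were Ssh1 and Ssh2, the slingshot phosphatases that activate cofilin by dephosphorylation. Ssh1 averaged 5.46 ± 2.43 FPKM in KO GV and 2.48 ± 0.856 FPKM in WT GV (SD, n = 3 each), and its log2 difference was 0.84 (adjusted p = 0.0389). Ssh2 averaged 1.47 ± 0.743 FPKM in KO GV and 0.347 ± 0.147 FPKM in WT GV, with a difference of 0.83 (adjusted p = 0.0155). Both calls were lost without KO GV replicate 2 (adjusted p = 0.186 for Ssh1 and 0.0747 for Ssh2), without KO GV replicate 1 or without WT GV replicate 3. At MI 0 of the 11 passed in limma and 1 had an unadjusted p under 0.05, as did 30.6% of all genes: Ssh2, at 0.64 (adjusted p = 0.0540). Ssh1 and Ssh2 both passed at MI with median-of-ratios and with quantile scaling. The list median at MI was 0.12, against -0.13 for all genes.

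Among nucleators, which start new filaments, 6 of 24 tested genes were higher in KO at GV and 0 lower, and at MI 2 were higher and 3 lower, with list medians of 0.68 and 0.12. The 6 higher at GV were above the share of all genes and the 3 lower at MI were near it, with no test of the list. The GV count was 2 without KO GV replicate 1 or 2, 16 without KO GV replicate 3, and 1 without WT GV replicate 2 or 3. Of all genes, 6.3% were higher and 5.7% lower without KO GV replicate 1. It was 6.69% and 5.52% without WT GV replicate 2, and 4.17% and 4.55% without WT GV replicate 3. At MI the count ran from 1 to 5 over the fits without 1 library. Of all genes, 1.73% to 5.46% were then higher and 7.49% to 16.7% lower. Arpc2, a core subunit of the Arp2/3 complex, averaged 107 ± 11.5 FPKM in KO GV and 54.9 ± 3.67 FPKM in WT GV (log2 difference 0.94, adjusted p = 0.00248), a call lost with median-of-ratios scaling (0.64, adjusted p = 0.0669). It was also higher in KO at MI, with 126 ± 1.23 FPKM in KO and 78.2 ± 7.13 FPKM in WT (0.68, adjusted p = 0.0161), a call lost without WT MI replicate 2 (adjusted p = 0.0503). That MI call was also lost in a fit of only the MI libraries (adjusted p = 0.0550). Arpc4, another subunit, was lower in KO at MI, with 0.907 ± 0.212 FPKM in KO and 2.44 ± 0.774 FPKM in WT (-0.83, adjusted p = 0.0137), a call lost without KO MI replicate 1 (0.0603) or WT MI replicate 2 (0.0685). Among the other nucleators called at MI, Arpc3, also a subunit, was higher in KO, with means of 3.31 FPKM in KO and 1.55 FPKM in WT (0.76, adjusted p = 0.0341). Cobl was lower, with means of 0.143 FPKM in KO and 1.00 FPKM in WT (-0.81, adjusted p = 0.00322). How these calls of Arpc3 and Cobl hold in other fits is not given here. From GV to MII, 3 of the 24 nucleators rose and 5 fell in KO, near the 11.9% and 25.4% of all genes, while 15 rose and 4 fell in WT, where 28.9% and 28.8% of all genes did. The list median of that change was 0.10 in KO and 1.05 in WT, against -0.07 and 0.09 for all genes, and the difference between the genotypes was not tested.

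Among capping and severing proteins, 2 of 14 tested genes were higher and 2 lower in KO at GV, and 0 higher and 2 lower at MI, with list medians of 0.18 and 0.06. The shares were close to those of all genes for the higher genes at GV and for the lower genes at MI. The 2 lower at GV were above the 7.49% of all genes, with no test of the list. Without KO GV replicate 2, 0 were higher and 2 lower at GV, and without KO GV replicate 3, 5 were higher and 4 lower. Add3, which encodes gamma-adducin, averaged 3.79 ± 0.147 FPKM in KO MI and 15.6 ± 1.93 FPKM in WT MI (-1.79, adjusted p = 6.63e-05). Already at GV Add3 was lower in KO, with 3.53 ± 1.32 FPKM in KO and 9.30 ± 2.22 FPKM in WT (-1.21, adjusted p = 0.00268). How that GV call holds without single libraries is not given here. Capza2, the alpha subunit of a capping protein, averaged 8.18 ± 0.540 FPKM in KO MI and 21.5 ± 5.61 FPKM in WT MI (-1.27, adjusted p = 0.000547). Capzb, its beta subunit, was higher in KO at GV, with 15.2 ± 4.22 FPKM in KO and 7.62 ± 1.10 FPKM in WT (0.88, adjusted p = 0.0146), a call lost without KO GV replicate 2 (0.69, adjusted p = 0.0734) or WT GV replicate 3 (adjusted p = 0.0690). Among tropomyosins, crosslinkers and myosins, 3 of 18 were higher in KO at GV (Tpm4, Myh10 and Myl6) and 0 lower, with a list median of 0.64, a share close to the 13.3% of all genes. Without KO GV replicate 2 the calls of Myh10 (adjusted p = 0.0603) and Myl6 (adjusted p = 0.0587) were lost and 2 genes passed, and without KO GV replicate 3 there were 8 higher and 1 lower. At MI 0 of the 18 passed in limma, 4 had an unadjusted p under 0.05, where 30.6% of all genes did, and the median was 0.19. Of 7 other actin, profilin, thymosin and cofilin-homology genes, 0 passed in limma at GV or MI, with 1 under an unadjusted p of 0.05 at each stage and medians of 0.23 and 0.01. Of 3 genes for serum response factor and its coactivators, 0 passed in limma at GV or MI, with 2 and 0 under an unadjusted p of 0.05 and medians of 0.76 and 0.10; the shares of all genes under it were 38.1% at GV and 30.6% at MI. Srf averaged 9.80 ± 9.53 FPKM in KO GV and 1.90 ± 0.532 FPKM in WT GV (1.43, adjusted p = 0.0561). It passed without KO GV replicate 3 (2.24, adjusted p = 0.000552), and without KO GV replicate 2 the difference was 0.71 (adjusted p = 0.323).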

How the data were processed

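Levels are the FPKM values that the authors deposited, in 18 columns and 27874 genes, of which 27829 were matched to GENCODE vM21. The submitters' processing notes name mm10 and DESeq2 1.38.3 with no role, while an aligner, a counter, an annotation or a strand is not given in the sources used here. FPKM times exon length gave whole reads (within 0.05 read) for 93.3% to 93.9% of nonzero values under 1000 reads, which gives the depth per library. The 10320 genes that reached 1 FPKM in 3 or more libraries were fitted as log2(FPKM + 1) with limma 3.58.1 in R 4.3.3, as 6 group means with a variance trend and 12 residual degrees of freedom. The log2 scale with a pseudocount of 1 understates changes of low genes. P-values are two-sided; each comparison was adjusted by Benjamini-Hochberg on its own, and 0.05 was the threshold. The fit was tested on simulated data in which each gene had the same spread in every library. That simulation does not cover the wider spread of KO GV replicates 2 and 3.

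The members and lists were chosen with earlier results of these data known. Genes named besides the 9 are Lsm14b, up to 4 genes of each list with the smallest adjusted p at GV or MI, and the 5 genes most correlated with Tmsb10 or Cfl1. Cell type markers, near copies of the 9 genes and Snx32, whose exons overlap those of Cfl1, are named as well. Near copies were found with BLAST 2.17.0. Alternatives were a pseudocount of 0.1 or 5, a filter at 5 FPKM or none, 3 other scalings (median-of-ratios, quantile and TPM), a fit of only the groups compared, the replicate block and leaving out each library. A voom fit of the recovered reads and the addition of near copies were chosen after seeing the data, as were the alternatives for the lists of other actin regulators.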

Additional observations from a re-analysis of the deposited data

How the results depend on the processing

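Fits of only the groups compared called 0 of the 8 genes between KO and WT at GV, 0 from GV to MI in KO and 2 from GV to MII in KO, against 3, 1 and 4 as reported. In those fits 0.329% of all genes rose and 3.68% fell from GV to MI in KO, and 4.84% rose and 18.7% fell from GV to MII in KO. From GV to MI in KO the count was also 0 without a filter (0.692% of all genes rose and 3.58% fell) and with median-of-ratios scaling. From GV to MI in WT it was 1 with median-of-ratios and 1 with quantile scaling, against 0, and from GV to MII in KO it was 2 with quantile scaling. With 1 library left out, counts ran from 2 to 5 for KO against WT at GV, 2 to 4 at MI, 0 to 3 from GV to MI in KO, 5 to 6 from GV to MII in WT, 2 to 5 from GV to MII in KO, and 0 to 1 for the difference between genotypes. The cause was not tested. Over the fits without 1 library, 4.17% to 29.6% of all genes were higher at GV and 4.55% to 10.5% lower. At MI these shares were 1.73% to 5.46% and 7.49% to 16.7%. From GV to MI in KO, 0.969% to 3.54% rose and 6.7% to 15% fell. From GV to MII, 21.5% to 31.7% rose and 25.6% to 30.7% fell in WT, and 6.96% to 12.4% rose and 20.1% to 29.9% fell in KO. Among the settings other than left-out libraries, signs turned for 4 log2 values that do not pass the test: Cfl1 at GV (-0.20) and from GV to MI in WT (-0.33), both with median-of-ratios scaling, Actb from GV to MII in WT (0.12 with TPM scaling and 0.13 with near copies added) and Cfl2 from GV to MII in KO (0.017 with quantile scaling). With 1 library left out, values on both sides of 0 were seen for Cfl1 at GV (-0.058 to 0.30), Cfl1 from GV to MI in WT (-0.23 to 0.25), Dstn at GV (-0.48 to 0.48) and MI (-0.13 to 0.77), Actb at MII (-0.23 to 0.67), Actb from GV to MII in WT (-0.63 to 0.27) and Cfl2 from GV to MII in KO (-0.83 to 0.14). The other log2 values computed again under these settings kept their direction. Over the settings other than left-out libraries, calls at GV ran from 0 to 9 for nucleators (6 as reported), 0 to 2 for the cofilin kinases list (2), 0 to 6 for capping and severing proteins (4) and 0 to 4 for tropomyosins, crosslinkers and myosins (3); at MI they ran from 2 to 6 (5), 0 to 2 (0), 2 to 4 (2) and 0 to 2 (0). From GV to MII in KO, nucleators gave 4 to 12 calls (8). Over those settings 0.891% to 14.2% of all genes were higher at GV and 2.03% to 14% lower. At MI it was 0.951% to 10.3% and 4.61% to 15.8%. From GV to MII in KO, 3.53% to 29.8% rose and 10.9% to 25.9% fell. Whether the replicate numbers pair the libraries is not said in the labels. Deviations of same-numbered KO and WT libraries from their group means had correlations of 0.11, -0.12 and 0.36 at GV. At MI these were -0.17, 0.24 and -0.12. Such values cannot decide it, since the deviations of 3 libraries from their own mean are tied to each other. With the number as a replicate block, 3 genes were called at GV and 4 at MI, as without it, and no other count changed. Depth limits Tmsb4x, with 0 to 86 reads a library.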
